A study of Mus musculus with 8 samples.

Results

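Chromatin accessibility was examined at 10 genes of late radial glia and astroglia: Zbtb20, Sparcl1, Aldoc, Slc1a3, Fabp7, Hopx, Tnc, Ptprz1, Bcan and Aqp4. They were taken as a named list from the 21938 protein-coding genes of the mouse annotation, with no threshold on their values. A peak was assigned to a gene when it overlapped the gene body or the 2 kb upstream of it. Peaks had been called separately in each sample, and those of all samples were merged where they overlapped. The 10 genes held 230 merged regions, and 63 of these had a peak in all 8 samples, as did 68274 regions across the genome. The 8 samples were single-nucleus ATAC-seq libraries, an assay in which a transposase cuts open chromatin, from WT mouse embryonic forebrain. They came from the cortex (CTX) and the medial, lateral and caudal ganglionic eminences (MGE, LGE and CGE, jointly the GEs), with 2 samples per region and no treatment. Embryos were E12.5 for 7 of them and E14.5 for CTX replicate 2. The sources used here do not give strain, sex, the number of embryos per sample or whether the replicates of a region came from separate embryos. The p-values therefore measure the spread between these samples, which may be technical. In the main tests of CTX against the GEs, the spread of the CTX pair also holds its difference in age. The CTX mean there joins E12.5 and E14.5, while all GE samples are E12.5.

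Radial glia are the stem cells that line the ventricle. They first give rise to neurons and later, as the neurogenic period ends, to astrocytes and oligodendrocytes, while part of the cortical population leaves the ventricular zone (VZ) as outer or basal radial glia. Genes of mature astroglia are known to be open or transcribed in radial glia before astrocytes appear. The 10 genes cover several roles. Zbtb20 is a zinc finger transcription factor and Hopx is a homeodomain-only cofactor used as a marker of outer radial glia. Fabp7 binds brain fatty acids, Slc1a3 is the glutamate transporter GLAST, Aldoc is a brain aldolase of glycolysis and Aqp4 is the astrocyte water channel. Tnc, Bcan and Sparcl1 encode tenascin-C, brevican and hevin, proteins of the extracellular matrix, and Ptprz1 is a receptor phosphatase that binds such ligands.

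The libraries held 39253 nuclei, from 3465 to 6845 each, with 77387940 to 138873845 counts in peaks. Replicate numbers differed in a property of the counts: odd counts per nucleus and peak made up 9.54% to 10.4% of entries in the replicate 1 libraries and 5.17% to 5.85% in the replicate 2 libraries. The cause of this difference was not tested. Any pair of libraries shared 15 to 56 barcodes, at most 1.17% of the smaller. Neuronal markers matched the labelled tissue. The 9 GABAergic markers summed to 577 and 742 CPM (counts per 1000000 counts in genes) in CTX and to 1290 to 2862 in the GEs, and the 8 glutamatergic markers to 823 and 1220 in CTX and to 393 to 528 in the GEs. The 8 progenitor markers, none of them among the 10 genes, summed to 1233 and 1497 CPM in CTX and to 1319 to 1978 in the GEs. Since counts were summed over nuclei, fewer accessible nuclei and less accessibility per nucleus cannot be told apart.

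Sequences of start sites and introns described in the results are given here, read from the GRCm38.p6 reference. The first 5 are the 250 bases upstream of a RefSeq start site, on the strand of the gene, and lay wholly inside a peak in all 8 samples. Capitals mark matches on either strand to the NFI half-site TTGGCA, the SOX motif ACAATG, the RBPJ motif TGGGAA, the POU motif ATGCNAAT or the homeodomain motif TAATTA. These were found in 12.3%, 10.7%, 21.6%, 2.86% and 4.84% of the 32851 RefSeq promoters in windows of the same length, so a match is a description of the letters and not a site. Aldoc and Hopx are shown because their accessibility was higher in CTX, Tnc because its start site was among the regions that differed both from the GEs and within them, Bcan because its start site was higher in MGE than in LGE and CGE, and Fabp7 because it varied least.
Aldoc promoter, chr11:78322823-78323072, plus strand, with 1 NFI half-site and 1 RBPJ match: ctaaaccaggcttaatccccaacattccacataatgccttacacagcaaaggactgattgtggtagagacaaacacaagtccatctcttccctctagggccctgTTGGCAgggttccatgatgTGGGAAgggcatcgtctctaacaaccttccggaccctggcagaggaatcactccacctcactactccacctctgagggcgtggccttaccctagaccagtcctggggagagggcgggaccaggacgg
Hopx distal promoter, chr5:77115124-77115373, minus strand, with no match: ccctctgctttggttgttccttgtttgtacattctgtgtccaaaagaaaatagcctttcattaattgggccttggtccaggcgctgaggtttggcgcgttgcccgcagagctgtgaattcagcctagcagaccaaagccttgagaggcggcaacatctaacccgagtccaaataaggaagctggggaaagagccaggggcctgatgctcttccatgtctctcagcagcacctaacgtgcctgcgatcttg
Tnc promoter, chr4:64047016-64047265, minus strand, with 1 RBPJ and 1 POU match: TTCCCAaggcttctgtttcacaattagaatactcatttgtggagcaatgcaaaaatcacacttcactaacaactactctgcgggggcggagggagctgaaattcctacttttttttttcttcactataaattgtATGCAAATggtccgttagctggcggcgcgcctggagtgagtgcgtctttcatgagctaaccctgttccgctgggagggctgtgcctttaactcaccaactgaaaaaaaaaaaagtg
Bcan promoter, chr3:88000357-88000606, minus strand, with no match: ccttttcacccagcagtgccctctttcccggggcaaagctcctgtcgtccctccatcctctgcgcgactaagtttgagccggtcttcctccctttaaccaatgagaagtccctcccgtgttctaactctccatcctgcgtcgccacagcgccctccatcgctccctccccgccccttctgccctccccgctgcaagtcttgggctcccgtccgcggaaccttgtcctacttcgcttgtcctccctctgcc
Fabp7 promoter, chr10:57784673-57784922, plus strand, with 1 RBPJ match: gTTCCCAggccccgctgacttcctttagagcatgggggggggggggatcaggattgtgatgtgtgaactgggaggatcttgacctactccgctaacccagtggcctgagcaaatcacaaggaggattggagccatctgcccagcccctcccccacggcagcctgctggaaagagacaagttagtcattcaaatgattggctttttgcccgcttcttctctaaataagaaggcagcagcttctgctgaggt

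A pair of intronic regions is shown by their central 300 bases, given on the plus strand. In windows of that length at the centres of all 68274 shared regions, the 5 motifs were found in 16.2%, 14.54%, 26.8%, 4.85% and 9.79%. The Hopx region was the most CTX-biased of that gene, and the Slc1a3 region was the one lower in MGE than in both other eminences.
Hopx intron, chr5:77090464-77090763, with 1 RBPJ and 1 homeodomain match: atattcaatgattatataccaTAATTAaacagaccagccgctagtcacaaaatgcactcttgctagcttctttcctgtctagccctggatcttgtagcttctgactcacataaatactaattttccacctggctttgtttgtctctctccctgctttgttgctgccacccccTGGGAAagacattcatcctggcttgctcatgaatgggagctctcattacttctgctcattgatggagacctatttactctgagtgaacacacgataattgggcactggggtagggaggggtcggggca
Slc1a3 intron, chr15:8659284-8659583, with 1 RBPJ match: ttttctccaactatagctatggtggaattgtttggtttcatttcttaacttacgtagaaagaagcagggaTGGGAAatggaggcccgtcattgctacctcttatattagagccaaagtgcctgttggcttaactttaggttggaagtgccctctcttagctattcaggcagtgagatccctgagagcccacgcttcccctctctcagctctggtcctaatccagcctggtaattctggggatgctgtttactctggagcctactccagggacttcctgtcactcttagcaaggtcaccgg
The RefSeq promoter window matched for Zbtb20, chr16:43247034-43247283, by contrast, lay in no peak of any sample. It stands for only 1 start site, and the gene has 11 annotated ones. A region within 1000 bp of a start site, chr16:43501315-43509173, had a peak in all 8 samples, with 3225 to 13549 counts. The region of Zbtb20 with the most counts was 2814 bp at the 5′ end of the annotated gene, chr16:42874347-42877160. That region held 163 and 214 counts per 1000000 in tested regions in CTX and 184 to 237 in the GEs, with a log2 fold of −0.14 ± 0.16 (SE) for CTX against the GEs.

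Accessibility over a whole gene was compared first between CTX and the GEs, to ask whether the late radial glia genes were open to different extents in dorsal and ventral forebrain. Of the 10 genes, Aldoc and Hopx were higher in CTX and none was lower. By edgeR's quasi-likelihood test with Benjamini-Hochberg adjustment over all genes, 4.51% of 17357 genes were called at an adjusted p of 0.05 or less, 3.65% higher in CTX and 0.858% lower. The median log2 fold of the 10 genes was 0.46 against −0.00 for all genes tested.

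Aldoc, the aldolase of astroglia and their precursors, held 43.2 CPM in the E12.5 CTX sample and 35.4 CPM in the E14.5 one. It held 7.67 and 7.22 CPM in the MGE samples, 5.66 and 6.28 in the LGE samples, and 4.88 and 4.18 in the CGE samples. Both CTX samples lay far above all 6 GE samples. The log2 fold was 2.74 ± 0.15 (SE), a 6.70-fold difference, with an adjusted p of 0.00178 by edgeR. The gene had a single peak in every sample, and this peak was wider in CTX, covering 3.42 and 2.23 kb against 0.767 to 1.37 kb in the GEs. In CTX and MGE the peak also overlapped the neighbouring gene Spag5, so that all of its counts were shared there, whereas none were shared in LGE and CGE. Per covered kb the CTX samples still held 12.7 and 15.9 CPM against 5.10 to 7.38 in the GEs, and with covered length as an offset the log2 fold was 1.30, with an adjusted p of 0.0435 by edgeR, where 0.0615% of all genes were called. Without the offset, Aldoc stayed called when any 1 of the 8 samples was left out.

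Hopx, which marks outer radial glia, held 79.4 and 110.1 CPM in CTX replicates 1 and 2. The GE samples held 36.5 and 40.1 CPM in MGE, 47.3 and 39.5 in LGE, and 61.8 and 47.6 in CGE. The groups did not overlap, and the sample labelled E14.5 was the highest. The log2 fold was 1.08 ± 0.16 (SE), a 2.11-fold difference, with an adjusted p of 0.0170 by edgeR. Per covered kb the values were 10.3 and 11.8 CPM in CTX and 5.09 to 8.93 in the GEs, and with the offset the log2 fold was 0.69, no longer called at an adjusted p of 0.202 by edgeR. Counting only peaks near a start site gave a log2 fold of 0.97, close to that over the whole gene but not called, at an adjusted p of 0.0567 by edgeR.

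Tnc, which encodes the matrix protein tenascin-C of the progenitor niche, was the next in size. It held 40.8 and 27.5 CPM in CTX, 10.1 and 11.5 in MGE, 24.4 and 19.6 in LGE, and 30.9 and 19.5 in CGE. CGE replicate 1 lay between the CTX samples, and MGE was the lowest region. The log2 fold for CTX against the GEs was 0.91 ± 0.22 (SE), which missed the threshold with an adjusted p of 0.0644 by edgeR.

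Slc1a3 and Aqp4 carry glutamate and water across the membrane. Slc1a3, the glutamate transporter of radial glia and astrocytes, held 163 CPM in the E12.5 CTX sample and 85.4 in the E14.5 one, against 48.3 to 103 in the GEs with a median of 75.2. Its log2 fold of 0.71 ± 0.27 (SE) was not called, with an adjusted p of 0.219 by edgeR. A fit without 1 CTX sample holds no CTX spread, and its lone CTX sample is assumed to vary like the eminence pairs. Without CTX replicate 2 the log2 fold was 1.10 for Slc1a3 and 1.17 for Tnc, at adjusted p of 0.0402 and 0.0273 by edgeR, which made 4 genes called where 10.4% of all genes were. Without CTX replicate 1, Aldoc and Hopx alone were called, where 3.72% were. Taking the CTX ages as 2 groups, with the spread from the eminence pairs, called Aldoc, Hopx and Tnc, where 9.12% were. Aqp4, the water channel of astrocyte endfeet, held 39.5 and 26.3 CPM in CTX and 16.5 to 29.2 in the GEs. Its log2 fold of 0.59 ± 0.23 (SE) had an adjusted p of 0.224 by edgeR.

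The other 5 genes were not called by edgeR between CTX and the GEs. Fabp7, the brain fatty acid binding protein of radial glia, held 69.7 and 59.1 CPM in CTX and 52.8 to 65.3 in the GEs, with a log2 fold of 0.11 ± 0.13 (SE). Zbtb20, the transcription factor, held 765 CPM in the E12.5 and 479 CPM in the E14.5 CTX sample, the highest and lowest of the 8 samples, around 635 to 757 in the GEs. Sparcl1, the matricellular protein hevin, likewise had its highest and lowest values in CTX, at 116 and 58.6 CPM, around 68.8 to 104 in the GEs. Ptprz1, the receptor phosphatase, held 130 and 119 CPM in CTX and 80.4 to 117 in the GEs. The groups narrowly did not overlap in CPM. Of the 13133 Ptprz1 counts in CTX replicate 1, 3010 came from an intronic peak found in that sample alone. Per covered kb they did, at 7.52 and 8.84 CPM in CTX and 5.08 to 10.4 in the GEs. The log2 fold of 0.34 ± 0.12 (SE) had an adjusted p of 0.179 by edgeR and of 0.0259 by DESeq2. Bcan, the proteoglycan brevican, held 107 and 76.4 CPM in CTX and 68.3 to 191 in the GEs, and is described with the eminences below.

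**Figure D1:**
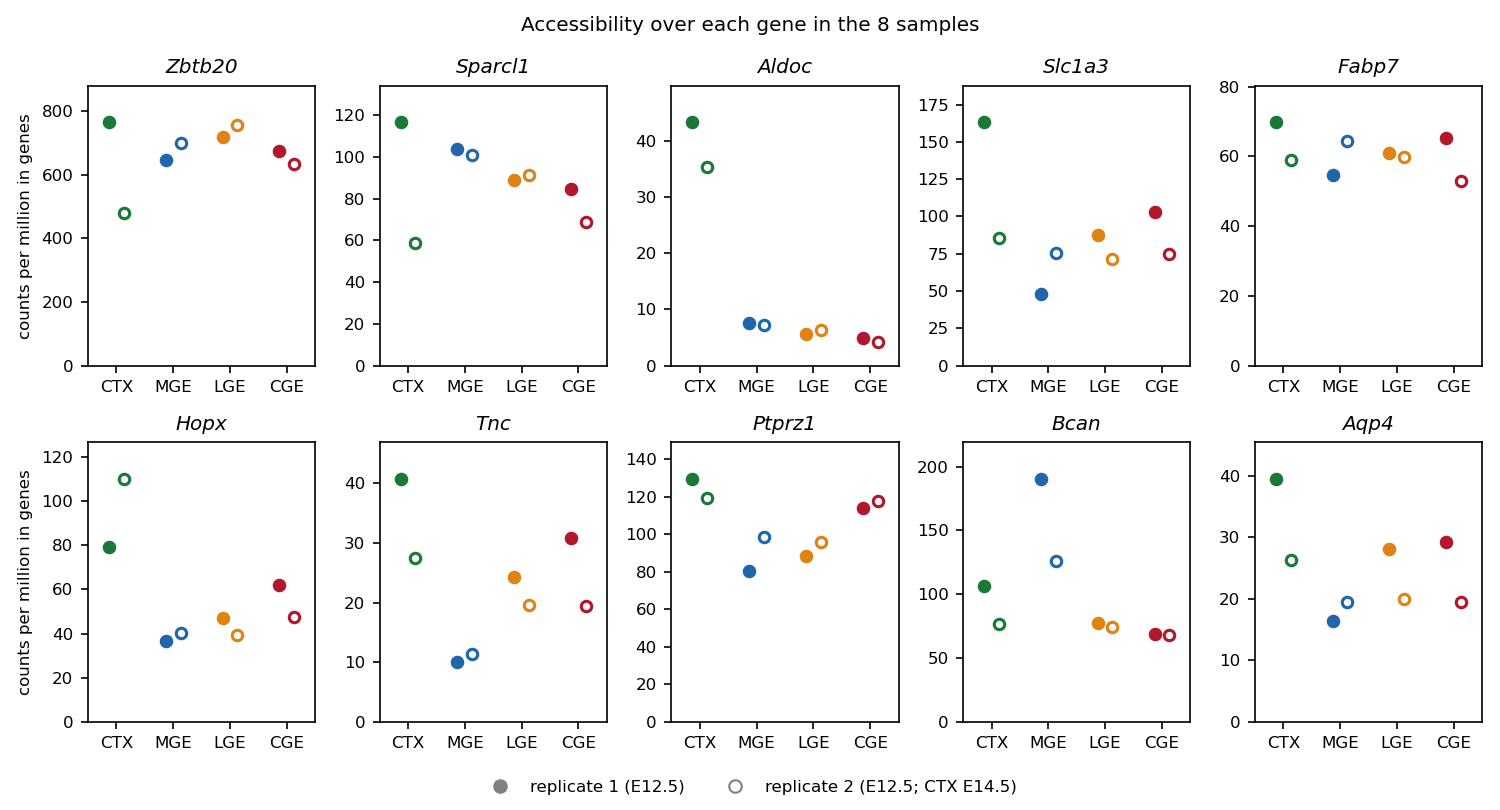
Accessibility over each of the 10 genes in CPM, by region (filled points, replicate 1; open points, replicate 2; CTX replicate 2 is E14.5). Aldoc held 43.2 and 35.4 CPM in CTX and 4.18 to 7.67 in the GEs, while the CTX samples of Zbtb20 and Sparcl1 enclosed those of every other region.

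Levels of different genes were compared only per covered kb. Fabp7 had the densest signal, with 15.1 to 20.02 CPM per covered kb over the 8 samples, above every value of the other genes except some of Aldoc and Slc1a3. Tnc and Aqp4 had the sparsest, at 3.20 to 8.05 and 3.85 to 7.76 CPM per covered kb. Between them lay Hopx at 5.09 to 11.8, Ptprz1 at 5.08 to 10.4, Bcan at 7.33 to 12.3, Sparcl1 at 6.52 to 13.9, Zbtb20 at 7.55 to 14.2, Aldoc at 5.10 to 15.9 and Slc1a3 at 5.96 to 16.6. These 7 ranges overlapped one another. Within a sample the order could still be steady, as Bcan was above Ptprz1 in 8 of 8 samples.

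The tool and the length called as peak changed these calls. With DESeq2 in place of edgeR, Aldoc, Hopx, Tnc, Slc1a3 and Ptprz1 were called, where 15% of all genes were called. With covered length as an offset Aldoc alone was called, and the log2 folds of Hopx, Tnc, Slc1a3 and Aqp4 were 0.69, 0.54, −0.10 and 0.16. In that fit 0.0615% of all genes were called and their median log2 fold was −0.15.

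**Figure D2:**
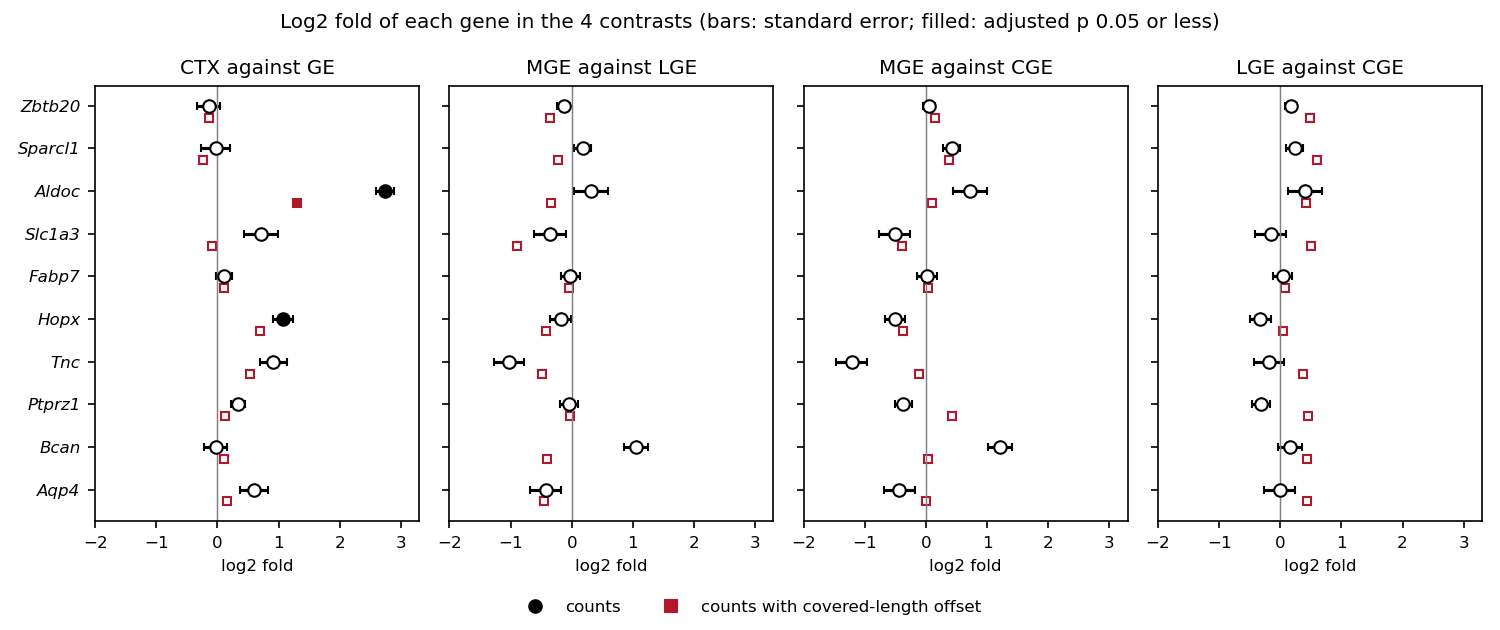
Log2 fold of each gene in the 4 contrasts, with bars for the standard error, from counts (circles) and from counts with covered length as an offset (squares, no error bars). Filled symbols have an adjusted p of 0.05 or less: Aldoc at 2.74 and 1.30 and Hopx at 1.08 in CTX against the GEs, and no gene in the other contrasts.

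Single regions resolved where these differences lay. Of the 63 shared regions at the 10 genes, 10 differed between CTX and the GEs, 6 higher and 4 lower in CTX. Of all 68274 shared regions 14.9% were called, 9.49% higher and 5.39% lower, so the share at these genes was close to the background. Values for regions are counts per 1000000 in tested regions, a scale of their own.

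The start sites of Aldoc, Hopx and Tnc carried more signal in CTX. The Aldoc region, chr11:78321869-78325284, which contains the promoter printed above, held 41.3 and 35.2 in CTX and 4.16 to 7.64 in the GEs. Its log2 fold was 2.75 ± 0.16 (SE), at an adjusted p of 0.00222 by edgeR. The Hopx distal start site, chr5:77114190-77116084, held 18.4 and 16.01 in CTX and 4.90 to 10.7 in the GEs, with a log2 fold of 1.40 ± 0.25 (SE) and an adjusted p of 0.0129 by edgeR. At both start sites every CTX sample was above every GE sample. The Tnc start site, chr4:64045089-64048429, held 23.96 and 17.96 in CTX against 5.57 to 15.4 in the GEs, with a log2 fold of 1.13 ± 0.24 (SE) and an adjusted p of 0.0228 by edgeR.

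Introns of Hopx and Ptprz1 also differed. The Hopx intron, chr5:77088930-77092298, about 24.5 kb into the gene, held 27.7 in the E12.5 and 66.0 in the E14.5 CTX sample, against 6.64 to 15.7 in the GEs. Both CTX samples were above the GEs, the E14.5 sample the most. Its log2 fold was 1.84 ± 0.32 (SE), with an adjusted p of 0.0123 by edgeR. The proximal Hopx start site, chr5:77093695-77095897, held 19.9 and 21.3 in CTX and 11.2 to 16.8 in the GEs, and its log2 fold of 0.60 ± 0.18 (SE) was not called, with an adjusted p of 0.0702 by edgeR. The Ptprz1 intron, chr6:22936722-22939290, held 10.4 and 11.2 in CTX and 3.71 to 8.38 in the GEs, with a log2 fold of 0.88 ± 0.20 (SE) and an adjusted p of 0.0297 by edgeR. The start site of Ptprz1, chr6:22873732-22879479, was the region of that gene with the most signal and held 42.2 and 42.7 in CTX against 51.5 to 60.9 in the GEs, a log2 fold of −0.39 ± 0.12 (SE) that was not called, with an adjusted p of 0.0767 by edgeR.

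Zbtb20, whose body spans the longest stretch, had 139 merged regions, 33 of them shared, and these moved both ways. Intronic regions at chr16:43603319-43605719 and chr16:43308091-43311103 were lower in CTX. The former held 27.3 and 14.8 in CTX and 31.6 to 77.1 in the GEs, a log2 fold of −1.18 ± 0.27 (SE), and the latter 38.4 and 36.8 against 47.7 to 74.9, a log2 fold of −0.61 ± 0.12 (SE). A weak region at chr16:42945865-42947562, with 2.12 and 0.796 in CTX and 4.67 to 10.5 in the GEs, was lower in CTX with a log2 fold of −2.09 ± 0.45 (SE). An intronic region at chr16:43129760-43131541 was the other way round. It held 31.7 in CTX replicate 1 but 3.04 in its partner, against 0.784 to 1.56 in the GEs, so its log2 fold of 3.86 ± 0.67 (SE) rested largely on CTX replicate 1, without which it was 1.37 and not called. The fourth region lower in CTX was an intron of Tnc, chr4:64001881-64004335, with 1.30 and 0.371 in CTX and 3.73 to 7.97 in the GEs, where 28 to 138 counts stood behind the CTX values.

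The calls at the Aldoc start site, the Hopx distal start site and the Hopx intron held in each of the 8 fits that left out a sample, and with the offset, at log2 folds of 1.31, 0.83 and 1.33 and adjusted p of 0.00400, 0.0402 and 0.00589. The other 7 lost the call in at least 1 such fit. The Zbtb20 region at chr16:42945865-42947562 and the Ptprz1 intron lost it without any single one of the 6 GE samples, at adjusted p of up to 0.0732 and 0.104 by edgeR. The Zbtb20 region at chr16:43603319-43605719 lost it without either MGE sample, either CGE sample or LGE replicate 2, and the one at chr16:43308091-43311103 without either CGE sample or LGE replicate 2. The Tnc start site lost it without either MGE sample, CGE replicate 2 or LGE replicate 2, the Tnc intron without MGE replicate 1 or either CGE sample, and the region at chr16:43129760-43131541 without CTX replicate 1, MGE replicate 1 or CGE replicate 2.

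The number of regions called moved with the tool and with the CTX samples. DESeq2 called 18 of the 63, where 23.1% of all regions were called, and edgeR with the offset 7, where 9.17% were. Taking the CTX ages as 2 groups called 26, where 29.1% were. Without CTX replicate 1 there were 30 calls, 11 of them higher in CTX, where 24.2% of regions were called, and without CTX replicate 2 there were 24, of which 18 were higher, where 26.3% were. These 3 fits take the spread from the eminence pairs alone.

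Single peaks seen only in CTX were mostly those of 1 library, as they were across the genome. Of the 230 merged regions, 42 had a peak in CTX samples only, 32 of them in replicate 1 alone, 9 in replicate 2 alone and 1 in both. Of all 292532 merged regions, 25.9% had a peak in CTX samples only, 14.8% in replicate 1 alone, 7.91% in replicate 2 alone and 3.14% in both. CTX replicate 1 had 181339 peaks and replicate 2 had 167718. The last was at Slc1a3, with 1051 counts in the E12.5 sample and 19 in the E14.5 one.

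Within the ventral forebrain, the MGE, LGE and CGE were then compared in a fit of the 6 GE samples. By edgeR, 0 of the 10 genes were called between any 2 eminences. Background shares were also low, at 0.117% of 17145 genes for MGE against LGE, 0.111% for MGE against CGE and 0.0117% for LGE against CGE. At an unadjusted p under 0.05 there were 2, 6 and 0 of the 10 genes, where 9.14%, 10.1% and 3.88% of all genes were. DESeq2 called 2, 2 and 0, namely Tnc and Bcan in both comparisons with MGE, where it called 3.49%, 3.39% and 0.712% of all genes.

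Tnc and Bcan were the genes with the largest MGE folds, in opposite directions. Tnc held 10.1 and 11.5 CPM in the MGE samples, below all 4 other GE samples at 19.5 to 30.9. Its log2 fold was −1.03 ± 0.25 (SE) against LGE and −1.22 ± 0.25 (SE) against CGE, with adjusted p of 0.260 and 0.205 by edgeR. Bcan held 191 and 126 CPM in the MGE samples, above 77.6 and 74.1 in LGE and 68.7 and 68.3 in CGE. Its log2 fold was 1.06 ± 0.20 (SE) against LGE and 1.21 ± 0.20 (SE) against CGE, with adjusted p of 0.158 and 0.138 by edgeR. Without MGE replicate 2, which leaves a lone MGE sample assumed to vary like LGE and CGE, both Bcan folds were called, at 1.32 and 1.47 and adjusted p of 0.0279 and 0.0217, where 0.75% and 1.31% of all genes were. In the MGE samples alone, 73.4% and 73.7% of the Bcan counts came from a peak that also overlapped Nes, the neighbouring intermediate filament gene of neural progenitors. With only peaks that overlap 1 gene, an alternative chosen after seeing the data, the Bcan log2 folds were −0.84 and −0.68, neither called. This alternative drops the shared peak from the MGE samples, while LGE and CGE keep all their Bcan counts. Its folds therefore cannot show the direction of Bcan without Nes. Per covered kb the MGE samples of Bcan held 9.79 and 7.40 CPM, inside the 7.33 to 12.3 of LGE and CGE.

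Single regions were called at about the background share. For MGE against LGE, 8 of the 63 regions were called, 3 higher and 5 lower in MGE, where 10.6% of all shared regions were called, 4.86% higher and 5.79% lower. For MGE against CGE 5 were called, 1 higher and 4 lower, where 9.4% were, 3.56% higher and 5.84% lower, and for LGE against CGE 0 were called by edgeR, where 0.00293% were. In the last, 15 regions had an unadjusted p under 0.05, where 12.1% of all regions did. DESeq2 called 12 of 63, 16 of the 61 it tested and 4 of 63 in the 3 comparisons, where 16.7%, 16% and 4.03% of regions were called. Its split was 4 higher and 8 lower in MGE against LGE but 11 higher and 5 lower in MGE against CGE, the latter the reverse of the balance by edgeR. With the offset edgeR called 6, 3 and 2, where 6.48%, 5.09% and 1.21% were. When the fit also held the CTX samples, 0 regions at these genes were called in either comparison with MGE, where 0.694% and 0.325% of all regions were.

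The Slc1a3 intron printed above, chr15:8657992-8660876, was lower in MGE. It held 16.05 and 15.4 in the MGE samples, 41.5 and 36.8 in LGE, 33.9 and 26.0 in CGE and 43.2 and 30.9 in CTX. The MGE samples were the lowest of the 8 and lay close together. The log2 fold against LGE was −1.32 ± 0.18 (SE), at an adjusted p of 0.00529 by edgeR, and −0.93 ± 0.18 (SE) against CGE, at 0.0191. The offset left both called, at −1.43 and −0.81, with the peak covering 2128 to 2870 bp in all samples. The Slc1a3 start site, chr15:8708680-8712304, held 14.4 and 17.1 in MGE, 22.7 and 21.8 in LGE and 22.2 and 17.5 in CGE, and its log2 fold of −0.51 ± 0.18 (SE) for MGE against LGE was not called.

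The Bcan start site, chr3:87995469-88003168, was higher in MGE, with 45.4 and 30.1 in the MGE samples, 10.8 and 9.73 in LGE and 13.4 and 14.4 in CGE. In CTX it held 44.8 in replicate 1 and 14.47 in replicate 2. The log2 fold was 1.87 ± 0.23 (SE) against LGE, at an adjusted p of 0.00385 by edgeR, and 1.44 ± 0.23 (SE) against CGE, at 0.00948. Both held with the offset, at 0.92 and 1.06. The region that spans Bcan and Nes, chr3:87978080-87988808, was not called, with log2 folds of 0.26 ± 0.20 (SE) and 0.59 ± 0.20 (SE). Markers of oligodendrocyte precursors, which also carry brevican, summed to 555 and 374 CPM in MGE and to 269 to 312 in LGE and CGE, and 0 of the 6 were called for MGE against LGE or CGE by edgeR, with 3 at an unadjusted p under 0.05 in each and 2 and 3 called by DESeq2. Across all genes 9.14% and 10.1% had such a p, and DESeq2 called 3.49% and 3.39%. The part of oligodendrocyte precursors in the Bcan result was not tested.

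Regions of Aqp4, Tnc and Zbtb20 also differed by eminence. An internal start site of Aqp4, 5.82 kb into the gene, held 4.44 and 5.18 in MGE, 14.3 and 11.04 in LGE and 13.2 and 9.13 in CGE, with log2 folds of −1.41 ± 0.25 (SE) and −1.22 ± 0.25 (SE) against LGE and CGE. A neighbouring Aqp4 region, 4.04 kb into the gene, held 194 and 129 counts in MGE but 6 and 1 in LGE, so that its fitted log2 fold of 5.56 rests on almost no counts on 1 side, and it was lost with the offset. The Tnc start site was lower in MGE by 1.07 and 1.10 on the log2 scale, at 5.57 and 6.08 in MGE, 13.6 and 10.7 in LGE and 15.4 and 9.56 in CGE. The intronic Zbtb20 region at chr16:43603319-43605719 held 31.6 and 37.0 in MGE and 54.7 and 77.1 in LGE, with a log2 fold of −0.95 ± 0.20 (SE). Another at chr16:43533224-43535213 held 3.43 and 4.14 in MGE and 15.3 and 9.18 in LGE, with a log2 fold of −1.71 ± 0.33 (SE), and an exonic one at chr16:43576806-43577994 was higher in MGE by 1.47. The Ptprz1 intron was lower in MGE than in CGE, with a log2 fold of −0.93 ± 0.23 (SE).

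Of the 8 calls for MGE against LGE, those at the Slc1a3 intron, the Bcan start site and the Aqp4 region 4.04 kb into the gene held in every fit that left out a sample. The other 5 were lost without MGE replicate 1 and some also without MGE replicate 2 or an LGE sample. For MGE against CGE each of the 5 was lost in at least 1 such fit. The Bcan start site was lost without either CGE sample, and each of the other 4 without MGE replicate 1 and without CGE replicate 1. With the offset, the calls at the Aqp4 region 4.04 kb into the gene, the exonic Zbtb20 region and the Tnc start site were lost for MGE against LGE, and those at the Tnc start site, the Ptprz1 intron and the Aqp4 internal start site for MGE against CGE.

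**Figure D3:**
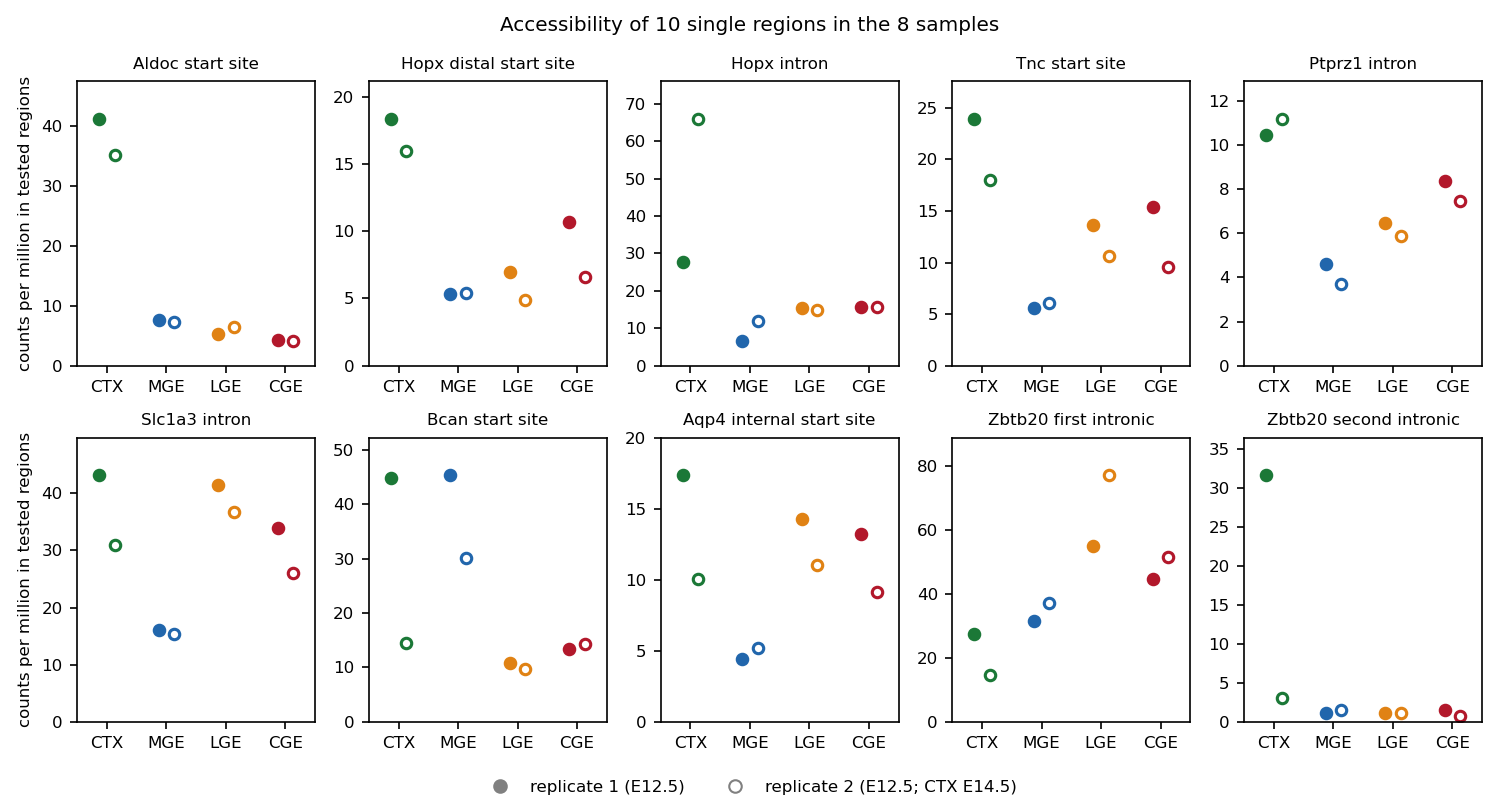
Accessibility of 10 single regions, in counts per 1000000 in tested regions, by region of origin (filled points, replicate 1; open points, replicate 2; CTX replicate 2 is E14.5; each panel has its own axis from 0; the first intronic Zbtb20 panel is the region lower in both CTX and MGE and the second the one high in CTX replicate 1 alone). The Aldoc start site separates CTX, at 41.3 and 35.2, from the GEs, and the Slc1a3 intron separates MGE, at 16.05 and 15.4, from the rest.

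The replicates of each region were set side by side next, with the CTX pair apart because it joins E12.5 and E14.5, so that age and library cannot be told apart. Ratios of replicate 2 to replicate 1 come from 1 library each and carry no test. In CTX, 9 of the 10 genes were lower in replicate 2, with a median log2 ratio of −0.52, where 49.9% of all genes were lower and the median was 0. The values were −0.99 for Sparcl1, −0.93 for Slc1a3, −0.67 for Zbtb20, −0.58 for Aqp4, −0.56 for Tnc, −0.48 for Bcan, −0.29 for Aldoc, −0.24 for Fabp7 and −0.12 for Ptprz1. Hopx was the exception, at 0.47. All lay inside the 5th to 95th percentile of all genes, −1.18 to 0.85, and 0 of the 10 passed 2-fold, where 10.6% of all genes did.

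Covered length moved with this pattern. The peaks of the 10 genes covered less in CTX replicate 2 than in replicate 1 for all genes but Hopx, for example 51.0 against 88.2 kb at Zbtb20 and 10.4 against 18.6 kb at Slc1a3. Per covered kb 4 of the 10 were lower in CTX replicate 2, where 42.2% of all genes were. The median log2 ratio was 0.06 against 0.07 for all genes. Sparcl1 at −0.77 and Aqp4 at −0.50 were the lowest on that scale.

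In the eminences, whose replicates share an age, 3 of 10 genes were lower in replicate 2 for MGE, 6 for LGE and 9 for CGE, with medians of 0.15, −0.05 and −0.30. Of all genes 47.8%, 52.1% and 53.2% were lower, with medians of 0.00, −0.01 and −0.02, so that the count of 9 in CTX was met in CGE. Per covered kb the counts lower were 9, 10 and 9, with medians of −0.30, −0.50 and −0.45, where 72.5%, 83.0% and 75.3% of all genes were lower, so the direction of the MGE median reversed on that scale. The largest ratios were 0.64 for Slc1a3 and −0.60 for Bcan in MGE, −0.48 for Aqp4 in LGE, and −0.65 for Tnc and −0.58 for Aqp4 in CGE. None passed 2-fold, where 5.07%, 3.15% and 2.36% of all genes did. Aqp4 in LGE and CGE and Tnc in CGE fell outside the 5th to 95th percentile of all genes. Over single regions the CTX pair stood apart from the others. In CTX 30 of the 63 regions differed by more than 2-fold, against 25.6% of all shared regions. Of the 30, 22 were lower in replicate 2, and the share of all regions lower past 2-fold is not given here. Zbtb20 alone held 33 of the 63 regions, so these counts weigh that gene most. In MGE 1 region differed that much, in LGE 3 and in CGE 0, against 5.49%, 3.09% and 1.61% of all shared regions.

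**Figure D4:**
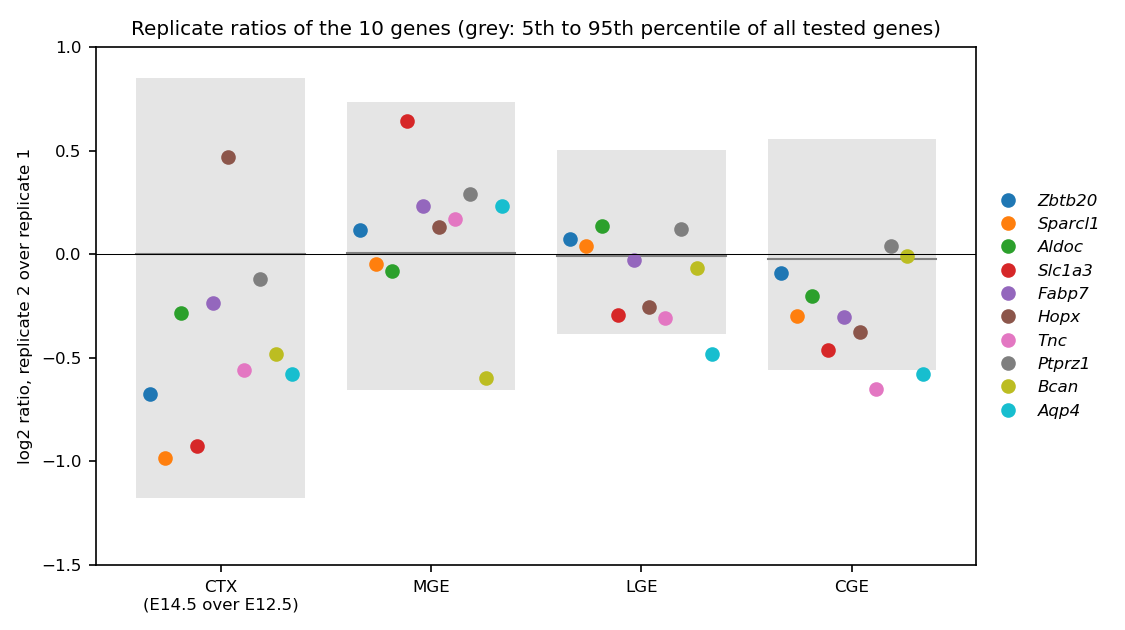
Log2 ratio of replicate 2 to replicate 1 of each gene (coloured points) in each region, from CPM, over the 5th to 95th percentile of all tested genes (grey boxes, line at the median). In CTX, where replicate 2 is E14.5 and replicate 1 E12.5, 9 of the 10 points lie below 0 and Hopx lies at 0.47.

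The nuclei were clustered to see in which of them the 10 genes were accessible, leaving the regions of these genes out of the clustering. Within each sample, among clusters with at least 10% of its nuclei, the one with the most progenitor-marker signal was set beside the one with the most neuronal-marker signal, read from the glutamatergic list in CTX and the GABAergic list in the GEs. CTX and GE ratios therefore refer to different neuron markers. Cluster 5, with 4 of 8 glutamatergic markers, held 504 to 1207 nuclei of each LGE and CGE sample and entered no GE pair. These are called the first and the second cluster of a sample. The choice was made after the clusters had been seen, and they stay unnamed. The first and second were clusters 3 and 0 for both MGE samples, 2 and 1 for LGE and CGE replicate 1, 4 and 1 for LGE and CGE replicate 2, 7 and 9 for CTX replicate 1 and 6 and 5 for CTX replicate 2. Clusters 2 and 4 were split by replicate number. Cluster 2 held 3022 and 1548 nuclei of LGE and CGE replicate 1 and 197 and 52 of their replicate 2. Cluster 4 held 207 and 70 nuclei of replicate 1 and 2326 and 1619 of replicate 2. A cluster was credited with a marker whose level reached 10 CPM and exceeded that of all other nuclei by over 0.5 on the log2 scale. Clusters 3 and 4 had 4 and 5 of the 8 progenitor markers and cluster 2 had 2. No progenitor marker was among the 10 leading genes of any first cluster. Cluster 3 also had 4 of 6 oligodendrocyte precursor markers, with Sox10 and Gpr17 among its 10 leading genes, and a higher mean log2 fold for that list, 1.01, than for the progenitor list, 0.61. Cluster 6 had 1 progenitor and 3 cortical hem or choroid plexus markers. Cluster 7 had 0 progenitor and 7 of 8 glutamatergic markers, beside 6 for cluster 9. Both clusters of the CTX replicate 1 pair were thus credited with neuronal markers. The other nuclei they were set against came mostly from the GEs, so these credits also hold the difference between CTX and the GEs. The progenitor list had a mean log2 fold of −0.22 in cluster 7 and −1.27 in cluster 9. These ratios are a description with no test.

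In the GE samples 9 of the 10 genes had more signal in the first cluster in 6 of 6 samples. In a single sample 38.9% to 42.3% of all genes had more, and the share with more in all 6 is not given here. The contrast was strongest for Fabp7, with a mean log2 ratio of 1.93 ± 0.48 (SD, n = 6), from 75.3 to 105 CPM in the first cluster and 15.7 to 31.5 in the second. Slc1a3 followed at 1.67 ± 0.31 and Sparcl1 at 1.51 ± 0.31. These 3 genes passed 2-fold in all 6 GE samples. Taking each sample singly, 1.1% and 2.64% of all genes did in MGE replicates 1 and 2, 1.48% and 2% in LGE, and 1.52% and 2.46% in CGE. Aqp4 at 0.71 ± 0.17, Zbtb20 at 0.70 ± 0.17, Tnc at 0.69 ± 0.31 and Hopx at 0.65 ± 0.36 were intermediate. Ptprz1 had a mean of 0.28 ± 0.17. Bcan, at 0.27 ± 0.32, had log2 ratios of 0.65 and 0.72 in MGE, where most of its counts came from the peak shared with Nes, and 0.04 to 0.09 in LGE and CGE. Aldoc had 3.54 to 8.43 CPM in the first cluster and 3.08 to 7.14 in the second, with a mean of 0.01 ± 0.43 and more signal in 3 of 6 samples. Its ratios rest on few counts, from 119 to 652 in the first clusters and 37 to 306 in the second.

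In CTX, Aldoc held 50.4 and 40.1 CPM in the first clusters, 7 and 6, of replicates 1 and 2 and 10.6 and 12.8 CPM in the second clusters, 9 and 5, and it alone passed 2-fold in both samples, where 2.11% and 2.41% of all genes did. In CPM, Aldoc was above its level in either cluster of every GE sample even in the second clusters of CTX. Cluster levels were not taken per covered kb. The Aldoc peak covered 3.42 and 2.23 kb in CTX and 0.767 to 1.37 kb in the GEs, so this comparison holds peak width as well. Hopx held 85.3 and 120 CPM in the first clusters and 39.1 and 78.7 in the second. Sparcl1, by contrast, differed little in CTX, with 107 and 104 CPM in replicate 1 and 58.9 and 57.3 in replicate 2. Aqp4 differed in direction between the CTX samples, with 37.5 and 32.9 CPM in replicate 1 and 22.6 and 48.1 in replicate 2. Clustering at resolution 1.0 changed the pair of CTX replicate 1 to clusters with 3 and 0 progenitor markers. Aldoc there held 104.6 and 35.4 CPM, a 2.95-fold difference in place of 4.74-fold, and Sparcl1 132.5 and 98.7 CPM, a 1.34-fold difference in place of 1.03-fold. Ptprz1 changed sign in that sample, from a log2 ratio of −0.44 to 0.12. In the GEs the means at resolution 1.0 were 2.31 for Fabp7, 2.06 for Slc1a3 and 1.70 for Sparcl1, and the same 9 genes had more signal in the first cluster in 6 of 6 samples. Bcan there had log2 ratios of 0.56 and 0.59 in MGE and 0.04 to 0.31 in LGE and CGE. Whether these patterns differ between CTX and the GEs was not tested.

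**Figure D5:**
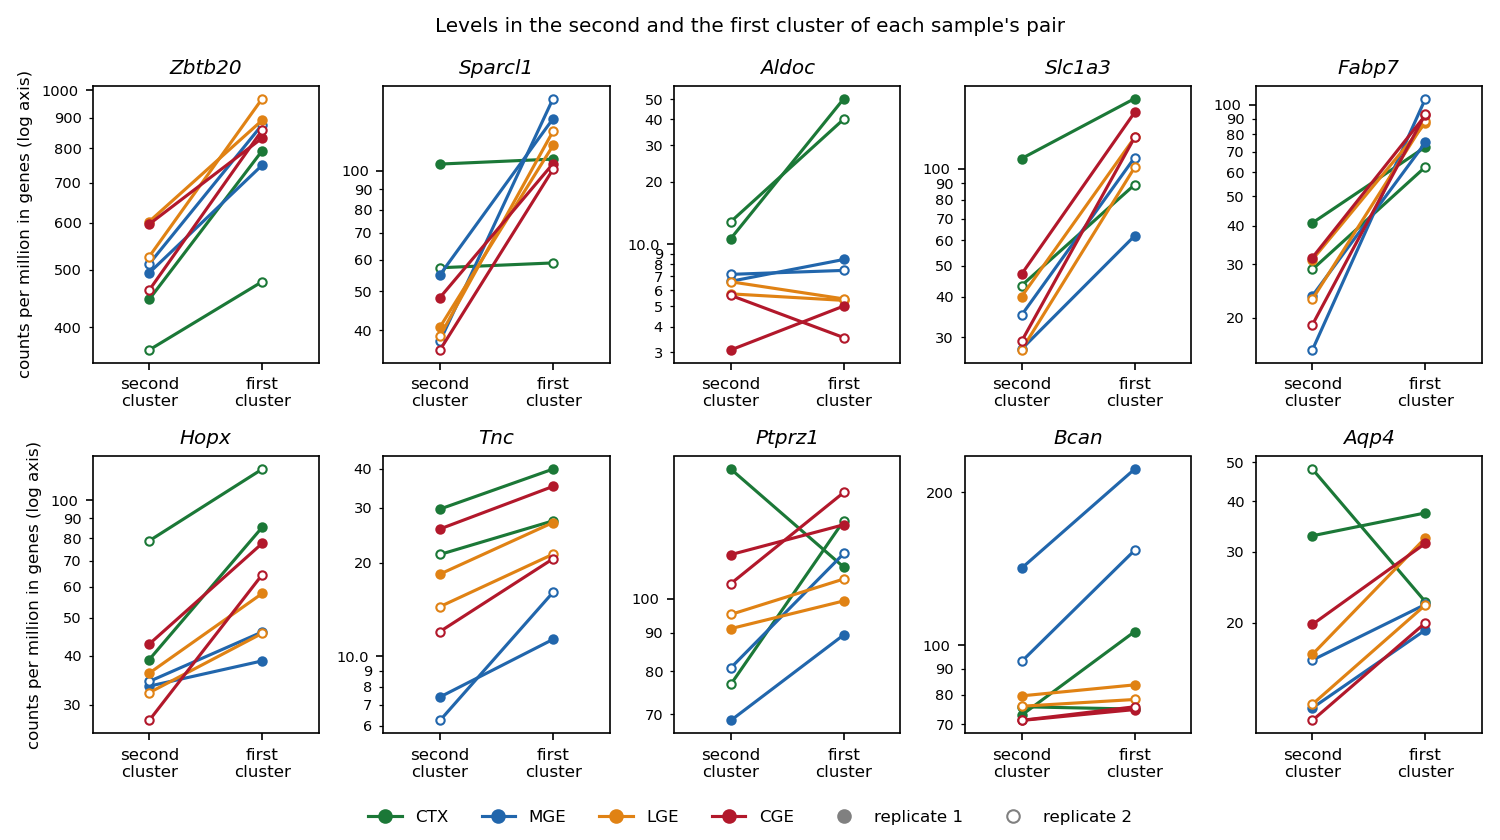
Level of each gene, in CPM on a log axis, in the second cluster (left, most neuronal-marker signal) and the first cluster (right, most progenitor-marker signal) of each sample, joined by a line (colour, region; filled, replicate 1; open, replicate 2). All 6 GE lines rise for Fabp7, Slc1a3 and Sparcl1, while for Aldoc the CTX lines end at 50.4 and 40.1 CPM and the GE lines between 3.54 and 8.43.

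Other genes of the same biology were read from lists chosen beside the 10 genes. Among gliogenic regulators, 5 of 10 were higher in CTX and 0 were lower, where 3.65% and 0.858% of all genes were. The nuclear factor I genes led them: Nfib, with 1566 and 1110 CPM in CTX and 454 to 570 in the GEs, had a log2 fold of 1.45 ± 0.15 (SE), Nfix one of 1.58 ± 0.24 (SE) and Nfia one of 1.03 ± 0.15 (SE), at adjusted p of 0.00804, 0.0171 and 0.0171 by edgeR. With covered length as an offset the folds were −0.11, 0.66 and −0.16, where the median of all genes was −0.15. Nfib and Nfia thus lay near that median. None of the 3 was called, where 0.0615% of all genes were. Of 18 other astroglial genes, 3 were higher in CTX and 2 lower. An unadjusted p under 0.05 was seen in 10 and DESeq2 called 9, where 18.4% and 15% of all genes were. Gja1, the gap junction protein connexin 43, had a log2 fold of 1.03 ± 0.15 (SE). Slc1a2, the glutamate transporter GLT-1, held 84.8 and 73.0 CPM in CTX and 117 to 145 in the GEs, a log2 fold of −0.76 ± 0.12 (SE). Acsbg1, an acyl-CoA synthetase, had one of −0.92 ± 0.18 (SE). Their adjusted p were 0.0143, 0.0176 and 0.0379 by edgeR, and with the offset none of the 18 was called.

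Of 14 radial glia genes 0 were called between CTX and the GEs by edgeR, with 3 at an unadjusted p under 0.05 and 3 called by DESeq2, and of 8 outer radial glia genes 0 were called, with 3 at an unadjusted p under 0.05 and 2 by DESeq2. Across all genes edgeR called 4.51%, 3.65% higher in CTX and 0.858% lower. Such an unadjusted p was seen in 18.4%, and DESeq2 called 15%. Among 9 matrix genes and partners of Ptprz1, Ptn, which encodes the ligand pleiotrophin, was higher in CTX, with 190 and 155 CPM against 73.4 to 127 and a log2 fold of 0.82 ± 0.17 (SE). Among 10 tested paralogs, the water and glycerol channels Aqp1 and Aqp9 were higher in CTX, with log2 folds of 2.28 ± 0.28 (SE) and 1.85 ± 0.24 (SE), and 14.3 to 24.7 CPM against 2.57 to 7.57. With the offset the log2 folds of Ptn, Aqp1 and Aqp9 were 0.45, 1.06 and 0.86. None was called, at adjusted p of 0.411, 0.202 and 0.309 by edgeR, where 0.0615% of all genes were. The median log2 fold was 0.71 for the gliogenic regulators, 0.40 for the paralogs, 0.29 for outer radial glia, 0.23 for the astroglial genes, −0.03 for the matrix genes and −0.14 for radial glia, beside −0.00 for all genes. Between eminences 0 genes of the 6 lists were called by edgeR, with 0 to 4 genes of a list at an unadjusted p under 0.05 and up to 2 called by DESeq2. For MGE-LGE, MGE-CGE and LGE-CGE, 9.14%, 10.1% and 3.88% of all genes had such a p, and DESeq2 called 3.49%, 3.39% and 0.712%.

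Markers of other cell types moved with the CTX comparison to different degrees. Of 9 GABAergic markers 6 were lower in CTX, of 8 glutamatergic markers 5 were higher and of 6 oligodendrocyte precursor markers 3 were lower, the last summing to 179 and 216 CPM in CTX and 269 to 555 in the GEs. Across all genes edgeR called 3.65% higher in CTX and 0.858% lower. An unadjusted p under 0.05 was seen in 18.4% of all genes, and DESeq2 called 15%. With the offset, 1 GABAergic, 1 glutamatergic and 0 oligodendrocyte precursor markers were called, where 0.0615% of all genes were. Of 8 progenitor markers 0 were called by edgeR, with 1 at an unadjusted p under 0.05 and 1 by DESeq2. Of 6 cortical hem or choroid plexus markers 1 was higher, with sums of 232 and 412 CPM in CTX and 204 to 277 in the GEs. Endothelial markers had 2 of 9 higher and mural or mesenchymal markers 1 of 9, summing to 234 to 283 and 220 to 278 CPM in CTX and to 189 to 257 and 179 to 250 in the GEs, and with the offset 0 of these or of the hem and choroid plexus markers were called. Microglial markers had 0 of 7 called, with 1 at an unadjusted p under 0.05 and 2 by DESeq2, and erythroid markers 0 of 4, with 1 and 0. Of the full microglial and erythroid lists of 9, 3 and 7 genes had no count in at least 1 sample. The part of these cell types in the Aldoc and Hopx results was not tested.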

How the data were processed

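The files the authors deposited for a sample hold its peaks, the raw counts of each peak in each nucleus, which were used here, and counts per transcription factor motif, which were not. Per the labels the libraries followed a droplet kit for single nuclei, and the submitters' processing notes name Cell Ranger ATAC 1.2.0 and GRCm38 (mm10). No peak ran past a GRCm38 chromosome end. Deposited counts are mostly even, since both ends of a fragment are counted.

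Counts were summed over nuclei per sample, as nuclei are not replicates. Gene counts were sums over all peaks of that sample on the gene body or 2000 bp upstream of it in GENCODE M21, with the length of those peaks as its covered length. Genes, and separately the regions shared by all samples, were tested with edgeR 4.0.16 in R 4.3.3 (glmQLFTest, TMM, filterByExpr, Benjamini-Hochberg over all features, call at 0.05). CTX was set against the mean of the 3 GEs in a fit of 8 samples as 4 groups, and the eminences against each other in a fit of their 6 samples as 3 groups. Fold changes are given with the standard error (SE). Alternatives were DESeq2 1.42.0, total counts as library size, no filter on low counts, covered length as an offset, the replicate number as a block, leaving out each sample, peaks within 1000 bp of a start site, other groupings and, added after seeing the data, peaks over 1 gene only. The edgeR fit was also run on simulated data, whose outcome is not reported here and serves as no support. The ratios between replicates used 0.5 CPM added to each side and no test. Counting error alone limits these ratios little, since single genes held 329 to 83425 counts per sample. Counts per cluster were lower, down to 37 for Aldoc in the second cluster of CGE replicate 1.

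Nuclei were clustered together on the shared regions (TF-IDF, 30 latent components, 20 neighbours, Leiden at resolution 0.5) with no doublet caller. The rule for pairing clusters was set after they had been seen. The deposited barcodes were kept as given. Of other gene lists, genes called in a main contrast were named, at most 3 per list and contrast by smallest adjusted p. Named regions are the start sites, the regions with the most counts and the called regions. The 10 genes, the lists and the tests were chosen with earlier results of these data known. RefSeq promoter windows were matched for 8 of the 10 genes, and none is printed for Sparcl1 and Aqp4. The paper given describes no chromatin data, so only the labels and files were used for the design.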

Additional observations from a re-analysis of the deposited data

How the results depend on the processing

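Of the 10 genes, 2 were called for CTX against the GEs. DESeq2 called 5, the covered-length offset 1, peaks near a start site 1, peaks over 1 gene 1 (Hopx, since Aldoc could not be fitted without its shared peak) and CTX ages as 2 groups 3, with 2 to 4 when a sample was left out (4 without CTX replicate 2). Of all genes 4.51% were called, 15% by DESeq2, 0.0615% with the offset, 1.03% near a start site, 4.32% with peaks over 1 gene, 9.12% with CTX ages as 2 groups and 1.3% to 10.4% when a sample was left out. In both MGE comparisons DESeq2 called 2 genes instead of 0, and leaving out a sample gave 0 to 1 (1 without MGE replicate 2). Of the 63 regions, 10, 8, 5 and 0 were called in the 4 contrasts (CTX-GE, MGE-LGE, MGE-CGE and LGE-CGE). They became 18, 12, 16 and 4 with DESeq2, 7, 6, 3 and 2 with the offset, and 0 in both MGE comparisons with all 8 samples in the fit. With CTX ages as 2 groups 26 were called. Leaving out a sample gave 3 to 30, 3 to 8, 0 to 9 and 0 to 1, with 30 without CTX replicate 1, while the share of all regions called ranged from 6.26% to 26.3%, 4.97% to 13.4%, 2.87% to 13.5% and 0% to 0.718%. The cause of these shifts was not tested.

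The direction of a gene's log2 fold reversed in these cases. None was called by edgeR with all samples or in the reversed direction, though Bcan for both MGE comparisons and Slc1a3 and Ptprz1 for CTX-GE were called in the first direction by DESeq2 or in a fit without a sample. With peaks near a start site, CTX-GE gave 0.37 for Sparcl1, −0.35 for Ptprz1 and 1.44 for Bcan, MGE-LGE 0.20 for Zbtb20 and 0.51 for Aqp4, MGE-CGE −0.017 for Fabp7, and LGE-CGE −0.65 for Sparcl1, 0.064 for Slc1a3, −0.0079 for Fabp7 and −0.46 for Bcan. With the offset, CTX-GE gave −0.097 for Slc1a3 and 0.10 for Bcan, MGE-LGE −0.23 for Sparcl1, −0.33 for Aldoc and −0.41 for Bcan, MGE-CGE 0.42 for Ptprz1, and LGE-CGE 0.50 for Slc1a3, 0.050 for Hopx, 0.38 for Tnc, 0.45 for Ptprz1 and 0.44 for Aqp4. The median of all genes shifted by −0.15, −0.19, 0.11 and 0.29 in the 4 contrasts with the offset. With peaks over 1 gene, Bcan gave 0.55 for CTX-GE, −0.84 for MGE-LGE and −0.68 for MGE-CGE. That setting drops a Bcan peak from the MGE samples alone, so these reversals do not give its direction. With total counts Aqp4 gave 0.0027 for LGE-CGE. Leaving out a sample reversed the sign of genes with folds near 0. CTX-GE ranged from −0.52 to 0.15 for Zbtb20, −0.61 to 0.39 for Sparcl1, −0.015 to 0.22 for Fabp7 and −0.29 to 0.19 for Bcan, the lowest without CTX replicate 1 and the highest without CTX replicate 2. MGE-LGE ranged from −0.21 to 0.10 for Ptprz1 and −0.15 to 0.095 for Fabp7, MGE-CGE from −0.022 to 0.11 for Zbtb20 and −0.13 to 0.19 for Fabp7, and LGE-CGE from −0.37 to 0.092 for Slc1a3, −0.10 to 0.20 for Fabp7, −0.48 to 0.18 for Tnc and −0.28 to 0.31 for Aqp4.

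Same-numbered samples of different regions correlated in their deviations over genes at 0.43 for LGE and CGE, 0.21 for CTX and LGE and 0.16 for CTX and CGE, and at −0.11 to 0.09 for the 3 pairs with MGE. Not every pair passed 0.1 and no label ties the numbers to a shared batch, so the samples were not treated as paired, although part of them deviated together. The share of odd entries also split all regions by replicate number, at 9.54% to 10.4% against 5.17% to 5.85%. Clusters 2 and 4 of the nuclei likewise split LGE and CGE by replicate number. An effect shared by replicate number therefore remains possible, also within the CTX pair. With the replicate number as a block, 2, 0, 0 and 0 genes and 11, 9, 5 and 0 regions were called in the 4 contrasts, where 3.45%, 0.0175%, 0.0175% and 0% of all genes and 13.7%, 10.9%, 9.45% and 0% of all regions were.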
